A study of Mus musculus with 18 samples.

Results

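Of the 8 mouse aldo-keto reductase 1C (Akr1c) genes considered, 6 were matched to a total of 8 probes of the liver microarray. After loess normalisation all 8 probes were on average higher in liver than in the common reference RNA, Akr1c21 at only 1.22 times the reference. The genes were Akr1c6, Akr1c12, Akr1c13, Akr1c14, Akr1c18, Akr1c19, Akr1c20 and Akr1c21, and every probe whose accession mapped to one of these symbols was taken, which gave 8 of the 41174 probes on the array, or 6 of its 16535 genes with a matched symbol. Akr1c13 and Akr1c20 matched no probe by accession. Only 23374 of the 41174 probes matched a symbol in the gene table used, and the gene names given for the probes were not used. A probe of either gene may thus be among those without a symbol. A probe with an unmatched accession was left out as a possible member and was not examined. The counts of 6 genes and 8 probes hold for the matched probes. The family was selected on the arrays themselves, because both Akr1c19 probes were higher in hypothyroid than in control liver, so every difference between hypothyroid and control animals given here describes the values that chose the genes and is not a test of them.

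Aldo-keto reductases are NADPH- or NADH-dependent enzymes that reduce carbonyl groups to alcohols or run the reverse oxidation. Members of the 1C branch act on the hydroxyl and keto groups of steroid hormones, and some also act on bile acids, prostaglandins and xenobiotic carbonyls. The liver carries out much of the clearance of steroid hormones, and thyroid hormone is a regulator of hepatic steroid, lipid and bile acid metabolism.

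The arrays compared livers of C57BL/6 male pups on post natal day (PND) 15, 1 pup from each litter. In the hypothyroid group (n = 5) the dams received 0.05% methimazole (MMI), which blocks thyroid hormone synthesis, and 1% perchlorate, which blocks iodide uptake by the thyroid, in sugar water from PND 12, and the control group (n = 5) received sugar water alone. According to the methods, pups of both groups had an injection of PBS shortly before sacrifice. Each liver RNA was hybridised together with 1 purchased universal mouse reference RNA, made from several cell lines, to a 2-colour Agilent array, and the measurement is the log2 ratio of liver over reference after loess normalisation. A log2 ratio of 1 is a doubling, and ratios were not compared between probes as amounts of RNA. Of all probes, 32056 passed the background limit, including all 8 Akr1c probes, whose liver signal was well above background on all 10 arrays.

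Some features of the arrays bear on the results. On slide 141 (control 832 and hypothyroid 576) the log ratios correlated at -0.974 and -0.978 with those of the arrays on the other slides, so the dyes were taken as exchanged there, and the values without this slide or with the dyes as labelled are given beside the results. Control 616 stood apart: its log ratios correlated at 0.884 with the arrays of the other slides, against 0.974 to 0.988 for the 9 remaining arrays with slide 141 turned, and their SD over probes was 0.73 against 1.01 to 1.099. The hepatocyte marker list (11 probes of 8 genes, all above the reference in control liver) averaged a log2 ratio of 2.64 on control 616, 4.04 to 4.63 on the other 4 control arrays and 4.28 to 4.70 on the hypothyroid arrays. All 11 of these probes had a positive difference in the hypothyroid group, with a median of 0.61, which was 0.29 without control 616. Alb, Apoa1 and Ttr, which encode abundant plasma proteins made by hepatocytes, differed by 0.66, 0.67 and 0.53. Exocrine pancreas markers (12 probes) averaged 2.52 to 4.08 in controls 522, 616 and 832, 0.52 and 0.55 in the other controls, and 0.41 to 0.53 in the hypothyroid livers. The mean ratios of the other marker lists lay between -0.79 and -0.22 (skeletal muscle, 12 probes), 1.05 and 1.91 (erythroid, 6), -0.05 and 0.50 (kidney, 5), -0.05 and 0.47 (adrenal cortex, 5), and 1.25 and 1.58 (sinusoidal, Kupffer, stellate and biliary cells, 12) over the 10 arrays. In RNA from whole liver, fewer cells of a type and less RNA per cell cannot be told apart.

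All members lay in 1 stretch of mouse chromosome 13. In the RefSeq gene order (GRCm38.p6) Akr1c14 was followed by Akr1c18, Akr1c13, Akr1c19, Akr1c12, Akr1c6, Akr1c20, Akr1c21 and then Akr1e1, with 0 other protein-coding genes between them. The promoters of Akr1c19, the gene on which the family was picked, and of its neighbours on either side, Akr1c13 and Akr1c12, are shown because they share a short repeat. Each is the RefSeq sequence of the 250 bases upstream of the annotated start, written 5′ to 3′ on the gene's strand. They lie at chr13:4233490-4233739 (plus strand) for Akr1c19, chr13:4190937-4191186 (plus strand) for Akr1c13 and chr13:4279400-4279649 (minus strand) for Akr1c12. Capitals mark each CATTAG.
Akr1c19: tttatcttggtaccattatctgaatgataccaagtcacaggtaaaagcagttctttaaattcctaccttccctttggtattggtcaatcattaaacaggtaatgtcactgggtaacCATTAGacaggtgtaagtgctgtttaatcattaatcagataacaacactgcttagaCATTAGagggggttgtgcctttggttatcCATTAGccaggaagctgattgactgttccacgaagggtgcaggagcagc
Akr1c13: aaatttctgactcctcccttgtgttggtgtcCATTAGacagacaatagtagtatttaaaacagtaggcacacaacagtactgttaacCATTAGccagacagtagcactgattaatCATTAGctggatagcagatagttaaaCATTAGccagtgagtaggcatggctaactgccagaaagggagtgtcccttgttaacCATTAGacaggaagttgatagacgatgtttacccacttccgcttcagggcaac
Akr1c12: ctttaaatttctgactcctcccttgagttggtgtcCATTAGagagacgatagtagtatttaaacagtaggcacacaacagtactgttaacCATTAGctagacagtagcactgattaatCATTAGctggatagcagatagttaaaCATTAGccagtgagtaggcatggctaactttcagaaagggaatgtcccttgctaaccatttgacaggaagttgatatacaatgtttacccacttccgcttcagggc

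CATTAG occurred 3 times in the Akr1c19 window, 5 times in that of Akr1c13 and 4 times in that of Akr1c12, on the gene's strand throughout. The repeat was noticed in these sequences and then counted over all promoters. It was present on either strand in 6.36% of the 32851 promoter windows of the same length, and 8 windows (0.0244%) held it 3 times or more, among them these 3 members. Akr1c6 and Akr1c21 held it once each, and Akr1c14 and Akr1c18 not at all. The windows of Akr1c12 and Akr1c13 were identical at 235 of 246 aligned bases (95.5%), whereas Akr1c19 matched Akr1c13 at 64.4% and Akr1c12 at 62.6% of aligned bases. Those shares were within the 55.3% to 68.8% found for the other pairs of members, apart from the pair of Akr1c12 and Akr1c13. AGGTCA, the half-site bound by many nuclear receptors including the thyroid hormone receptors, was in 14% of all windows, and TGACNNNGC, the core of the antioxidant response element, was in 10.2%. Neither set of letters was present on either strand in the windows of the 7 members with a RefSeq promoter. GTTAAT, a half-site of the hepatocyte factor HNF1, was in 6.43% of all windows and in that of Akr1c21 alone among the members, and TATAAA was in 12.4% of all windows and in that of Akr1c6 alone.

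The first comparison, which the choice of genes did not use, was control liver against the reference RNA. In control liver all 8 probes were above the reference (limma, Benjamini-Hochberg adjusted p from 3.5e-11 to 6.7e-05), where 36.2% of all probes tested were above it and 33.5% below. In hypothyroid liver all 8 were again above it (adjusted p from 1.7e-11 to 6.2e-05), against 37.6% of all probes. The family was picked on high Akr1c19 values in these hypothyroid arrays, so the hypothyroid count is a description only. The reference is 1 RNA, so its own spread is not part of either fit against it, and p-values reflect the spread between pups of different litters. With the dyes as labelled on slide 141, 0 of the 8 probes passed in either group, as did 0 of all 32056 probes, so this setting says nothing about the family.

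Akr1c6, the mouse 17beta-hydroxysteroid dehydrogenase type 5 that interconverts active and less active sex steroids, had the highest ratio of the family. Its log2 ratio was 8.27, 8.17, 4.75, 7.67 and 8.11 in controls 391, 522, 616, 832 and 881, and 8.19, 7.88, 8.17, 8.15 and 8.49 in hypothyroid animals 311, 576, 626, 723 and 891. Control 616 was far below the other 9 animals, which lay within 0.82 log2 units of each other. The control mean corresponded to a ratio of 168 (266 without control 616) and the hypothyroid mean to 289. Of the 32056 probes tested, 2 had a higher mean log2 ratio in control liver than Akr1c6.

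Akr1c14, the mouse 3alpha-hydroxysteroid dehydrogenase that inactivates potent androgens and forms neuroactive steroids, was the next highest. Its log2 ratio was 5.13, 5.48, 4.86, 5.77 and 5.68 in the controls, in the same order, and 5.84, 6.01, 5.65, 5.58 and 5.84 in the hypothyroid animals. Of the hypothyroid animals 3 were above every control, and the groups overlapped. The means corresponded to 41.8 times the reference in control and 55.0 times in hypothyroid liver. The size of this ratio depended on the processing, since with processed signals the control log2 mean was 6.05 instead of 5.38.

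Akr1c19, an oxidoreductase of the same branch found in liver, was measured by 2 probes of the same accession. In control liver the ratio was 11.1 on probe A_51_P111335 (log2 3.48 ± 0.26, SD, n = 5) and 22.6 on probe A_51_P180213 (4.50 ± 0.40). In hypothyroid liver it was 19.1 (4.25 ± 0.24) and 30.3 (4.92 ± 0.13).

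Akr1c12 was also measured by 2 probes, and Akr1c18, the 20alpha-hydroxysteroid dehydrogenase that inactivates progesterone, by 1. Control liver was 7.35 and 6.31 times the reference on the Akr1c12 probes A_51_P242859 and A_52_P346037, and 7.09 times on the Akr1c18 probe. These 3 control ratios differed by less than the spread between animals, since the SD of the log2 ratio was 0.87, 0.26 and 1.23. The reference signal of Akr1c18 was dim, 30 to 162.5 units, and was not well above background on control 616. Its ratio thus depended on the processing. With processed signals the control log2 mean was 4.37 for Akr1c18, against 3.27 and 2.59 for the Akr1c12 probes. Akr1c18 was the most variable of the 8 probes after Akr1c6 in the control group: its log2 ratio was 2.55, 3.73, 0.79, 3.75 and 3.30 in the controls and 3.20, 2.99, 2.57, 3.90 and 3.53 in the hypothyroid animals. The hypothyroid animals thus lay inside the control range apart from hypothyroid 723, which was 0.16 above the highest control.

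Akr1c21, a 3(17)alpha-hydroxysteroid dehydrogenase best known from kidney, was at 1.22 times the reference in both groups. Its log2 ratio lay between 0.23 and 0.36 in the controls and between 0.23 and 0.36 in the hypothyroid animals. Its signal was dim, 92.5 to 220.5 units in the liver channel and 60.0 to 211 in the reference channel, where the 2 arrays of slide 141 carried the other dye. Before normalisation the liver signal on that slide was below the reference signal, at 98 against 211 units in control 832 and 92.5 against 209.5 in hypothyroid 576. Under median centring 7 of the 8 probes were above the reference in control liver, and Akr1c21 was the exception.

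**Figure D1:**
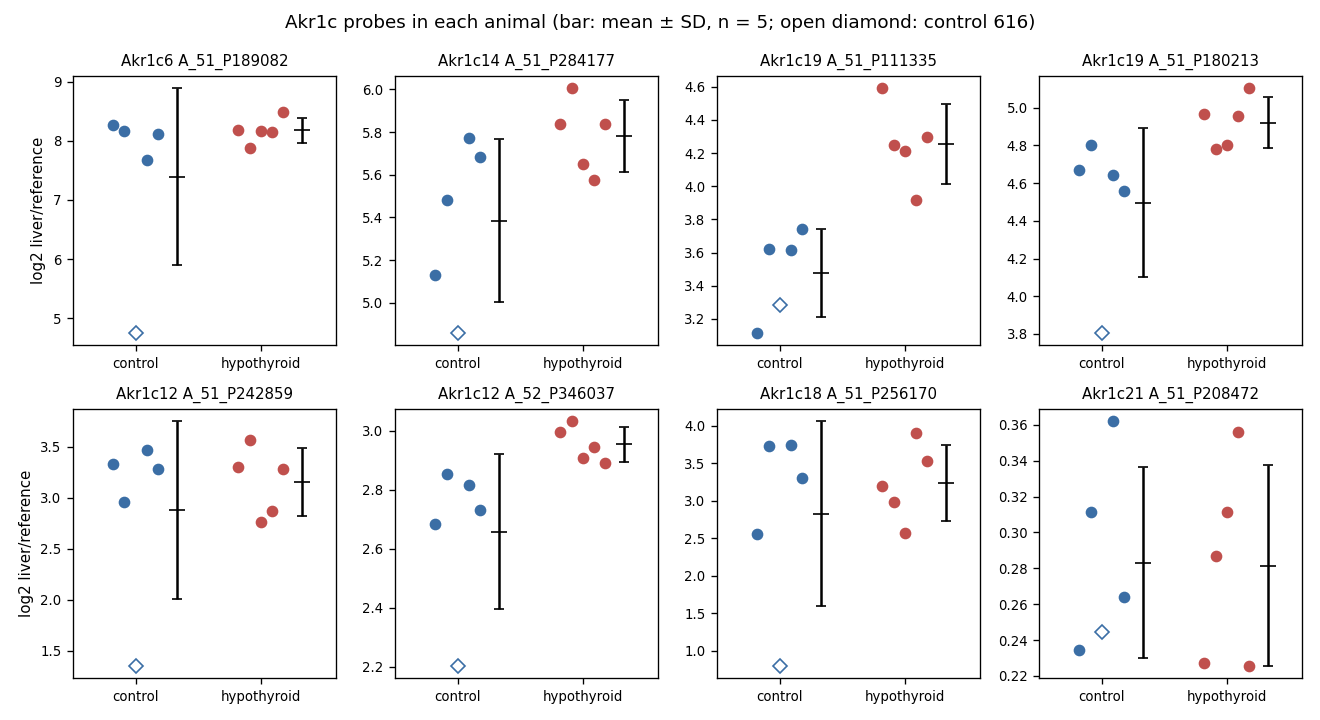
Log2 liver/reference ratio (vertical axis, scaled separately in each panel) of the 8 Akr1c probes in 5 control and 5 hypothyroid livers; each point is 1 animal, the open diamond is control 616, and the bar is the mean ± SD. The hypothyroid points lie above every control point on Akr1c19 A_51_P111335 and Akr1c12 A_52_P346037, and control 616 is the lowest control on 6 probes.

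The second comparison, hypothyroid against control liver, was the one on which the family was picked. The calls below are counts from the fit over all probes, given beside the share of all probes called, and nothing is read from them. Of the 8 differences, 7 were positive. At an adjusted p below 0.05, 0 of the 8 probes passed in the limma fit, where 3 of all probes (0.00936%) did. At an unadjusted p below 0.05, 4 of the 8 passed, against 7.47% of all probes. A re-coded version of the Fs statistic named in the methods also gave 0 and 4, against 2 and 2708 of 31634 probes. The paper, with its own software, lists Akr1c19 as significantly higher in hypothyroid liver. The 4 in the limma fit were both Akr1c19 probes, Akr1c14 and Akr1c12 A_52_P346037. There were 2 probes higher in hypothyroid liver without overlap between the groups, which was the case for 1.08% of all probes (0.986% were lower without overlap), and 0 were lower. The median difference over all probes tested was -0.01 log2 units.

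On the Akr1c19 probe A_51_P111335 the log2 ratio was 3.11, 3.62, 3.28, 3.62 and 3.74 in controls 391, 522, 616, 832 and 881, and 4.59, 4.25, 4.21, 3.92 and 4.30 in hypothyroid animals 311, 576, 626, 723 and 891. Every hypothyroid animal was above every control. The difference was 0.78 log2 units (limma SE 0.14), or 1.71-fold. It was 0.73 without control 616, 0.81 without slide 141, and 0.52 (SE 2.07) with the dyes as labelled, where the groups overlapped.

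On the Akr1c19 probe A_51_P180213 the log2 ratio was 4.67, 4.80, 3.80, 4.64 and 4.56 in the controls and 4.96, 4.78, 4.80, 4.96 and 5.10 in the hypothyroid animals. Control 616 was the lowest, control 522 was level with hypothyroid 576 and 626, and 3 of the 5 hypothyroid animals were above every control. The difference was 0.42 (SE 0.17), or 1.34-fold. Without control 616 it was 0.25, or 1.19-fold, and it was 0.37 (SE 2.49) with the dyes as labelled. The 2 probes thus shared a direction and differed in size, the first being higher by 1.66-fold without control 616.

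Akr1c12 was the other gene with a probe whose groups did not overlap. On A_52_P346037 the log2 ratio was 2.69, 2.85, 2.20, 2.82 and 2.73 in the controls and 2.997, 3.03, 2.91, 2.95 and 2.89 in the hypothyroid animals, a difference of 0.30 (SE 0.11), or 1.23-fold. The lowest hypothyroid value exceeded the highest control value by 0.04. Without control 616 the difference was 0.18, or 1.13-fold. The other Akr1c12 probe, A_51_P242859, gave 3.33, 2.96, 1.35, 3.47 and 3.28 in the controls and 3.31, 3.57, 2.77, 2.87 and 3.28 in the hypothyroid animals. Here the groups overlapped, the difference was 0.28 (SE 0.36), and it turned to -0.10 without control 616. Akr1c13 matched no probe here, and whether the probes of Akr1c12 also bind transcripts of such close relatives was not tested.

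The differences of Akr1c6 and Akr1c18 depended on which arrays were included. For Akr1c6 the difference was 0.78 (SE 0.58) with all arrays and 0.12 without control 616. For Akr1c18 it was 0.41 (SE 0.51) and -0.10, and without slide 141 it was 0.71 (SE 0.59). Akr1c14 differed by 0.40 (SE 0.17), and by 0.26 without control 616. Akr1c21 differed by -0.00 (SE 0.06) and by -0.01 without it.

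**Figure D2:**
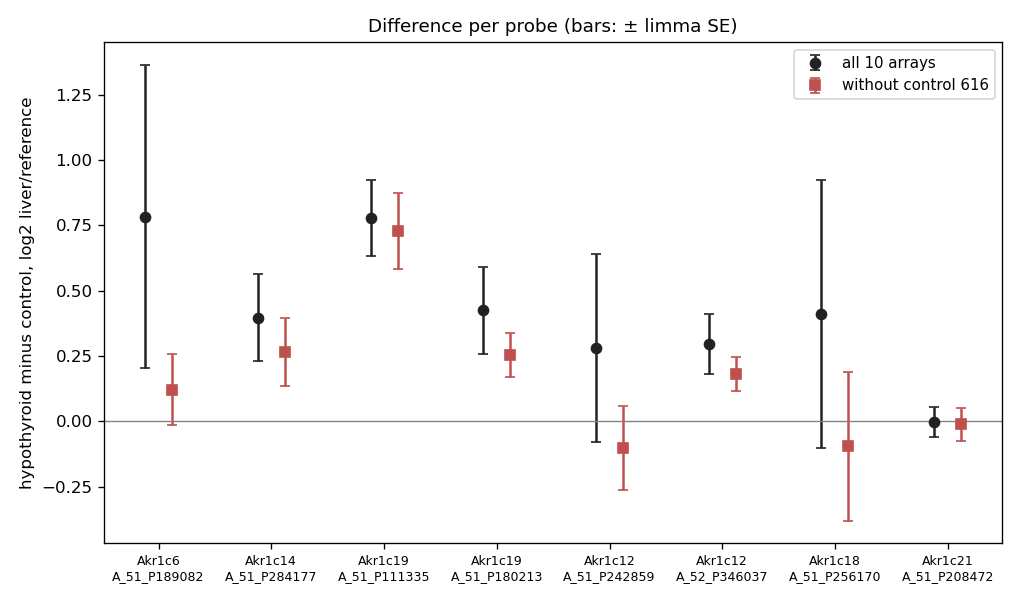
Difference between hypothyroid and control liver in log2 liver/reference (vertical axis) for each Akr1c probe, with all 10 arrays (circles) and without control 616 (squares); bars are the limma SE. Akr1c19 A_51_P111335 is at 0.78 and 0.73, whereas Akr1c6 moves from 0.78 to 0.12 and Akr1c18 from 0.41 to -0.10.

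The 2 channels of control 616 were then looked at separately, after quantile normalisation of each channel between arrays. In the reference channel, Akr1c6 was at 12.4 log2 units on that array and at 8.32 to 9.22 on the other 9, although the reference RNA was the same. Akr1c14 was at 8.98 in that channel, against 6.85 to 7.27 on the others, and in the liver channel it was at 13.4, against 12.4 to 12.8 in the other controls. Akr1c19 A_51_P180213 was at 10.6 in the reference channel, against 9.80 to 10.2, and at 14.1 in the liver channel, against 14.7 to 15.1 in the other controls. In the liver channel, Akr1c6 of control 616 was at 16.9, inside the 16.7 to 17.4 of the other controls. Akr1c12 A_51_P242859 was at 8.49 in the liver channel of control 616, against 10.5 to 11.1 in the other controls, and Akr1c18 was at 7.23, against 9.48 to 10.5, with reference values of 7.29 and 6.10 that lay just below those of the other arrays. The ratio of control 616 was thus low with a high reference value for Akr1c6 and Akr1c14, with a low liver value for Akr1c12 A_51_P242859 and Akr1c18, and with both for Akr1c19 A_51_P180213. The part of this array in the group differences beyond the values given was not tested.

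With the liver channel alone and the dye of the liver RNA as a term, Akr1c19 A_51_P111335 differed by 1.095 (SE 0.21) and A_51_P180213 by 0.22 (SE 0.16). Without control 616 these were 0.96 (SE 0.18) and 0.074 (SE 0.088). Akr1c14 differed by 0.22 (SE 0.19) with all arrays and 0.40 (SE 0.11) without control 616, and Akr1c6 by 0.04 and 0.01. The reference-channel values of A_51_P111335 were 7.42 to 7.75 on the hypothyroid arrays and 7.23 to 7.36 on the control arrays. This channel holds the same RNA on every array, and it stood higher in the hypothyroid group on this probe. That makes the ratio smaller than the liver signal alone, and which of the channels gives the truer size was not tested.

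**Figure D3:**
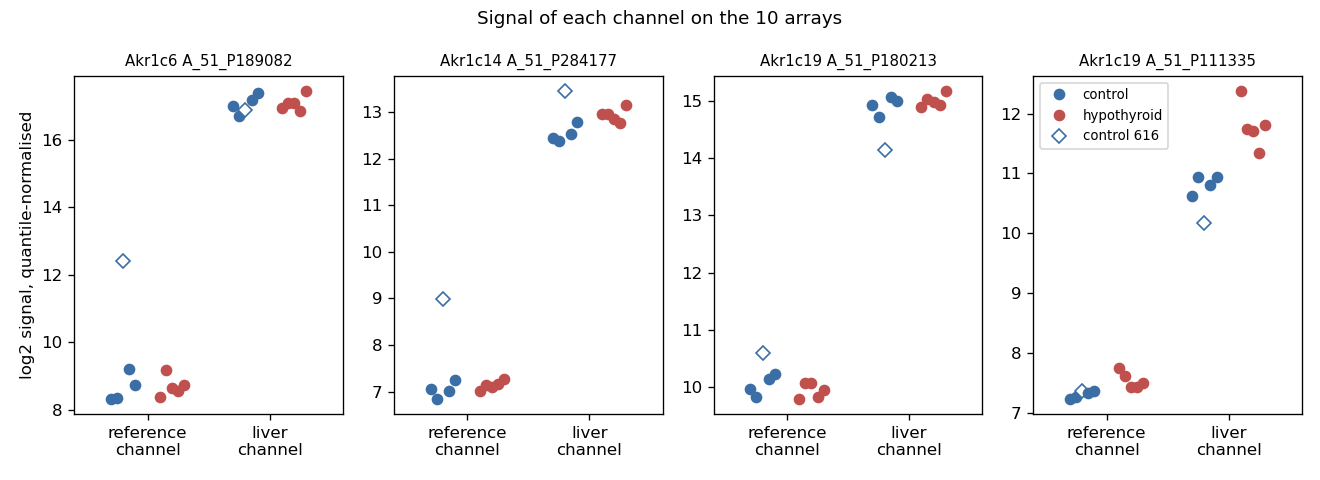
Quantile-normalised log2 signal (vertical axis, scaled separately in each panel) in the reference and the liver channel of the 10 arrays for 4 Akr1c probes; each point is 1 array, and the open diamond is control 616. In the reference channel, control 616 is at 12.4 for Akr1c6, above the 8.32 to 9.22 of the other arrays, while the liver channel of Akr1c19 A_51_P111335 separates the 2 groups.

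There were 4 slides that held an array of each group, so the difference could be read within a slide. On Akr1c19 A_51_P111335 the hypothyroid minus control difference was 0.93 on slide 100, 0.97 on slide 136, 0.55 on slide 139 and 0.64 on slide 141, positive on 4 of 4. On A_51_P180213 it was 0.99, 0.16, 0.55 and 0.13, with the largest value on slide 100, which held control 616. Akr1c14 (0.16 to 0.79) and Akr1c12 A_52_P346037 (0.14 to 0.70) were positive on all 4 slides as well. Akr1c6 was positive on all 4 but ranged from 0.02 to 3.42, the latter on slide 100. Akr1c18 differed by 1.77 on slide 100, -0.53 on slide 136, 0.23 on slide 139 and -0.76 on slide 141, with 2 slides in each direction. Akr1c12 A_51_P242859 ranged from -0.00 to 1.41 and Akr1c21 from -0.08 to 0.07. With slide as a fixed block the differences were 0.77 and 0.46 for the Akr1c19 probes.

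**Figure D4:**
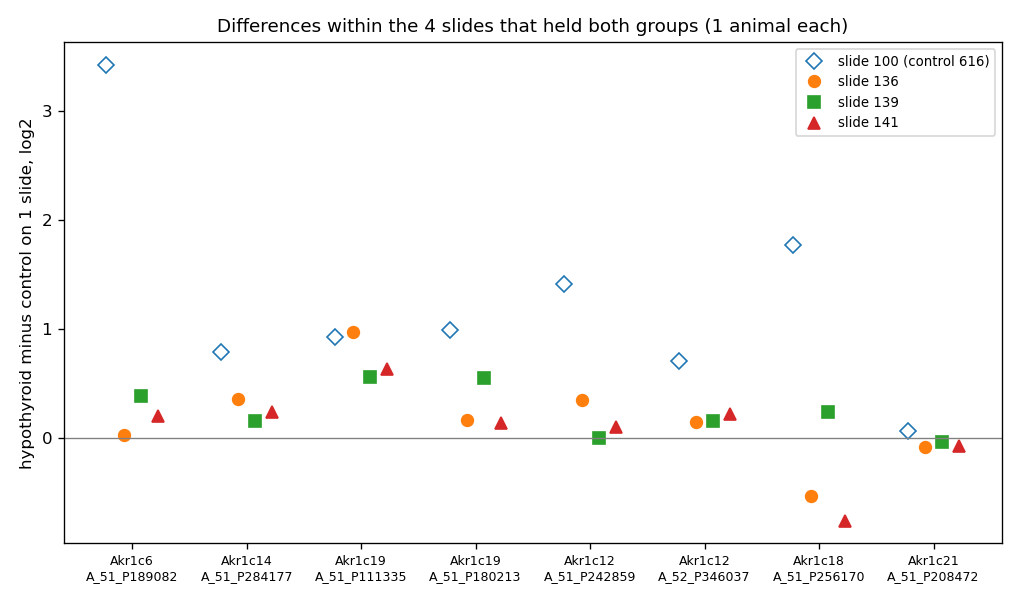
Hypothyroid minus control difference in log2 liver/reference (vertical axis) between the 2 animals on each of the 4 slides that held both groups, for each Akr1c probe; open diamonds are slide 100 with control 616. Akr1c19 A_51_P111335 lies between 0.55 and 0.97 on the 4 slides, and slide 100 gives the highest point on each of the other 7 probes.

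The controls with high exocrine pancreas markers were left out as a further check, which left controls 391 and 881. The Akr1c19 probes then differed by 0.83 (SE 0.19) and 0.31 (SE 0.11), both without overlap between the groups, and Akr1c12 A_52_P346037 by 0.25 (SE 0.08), also without overlap. Akr1c14 differed by 0.37 (SE 0.16), Akr1c18 by 0.31 (SE 0.31), Akr1c6 by -0.01 and Akr1c12 A_51_P242859 by -0.15. With 2 controls and 5 hypothyroid animals, groups without overlap were more frequent, with 1917 probes higher and 1656 lower of 31151 tested.

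The genes whose pattern over the 10 arrays was most like the mean of the Akr1c19 probes, among 20264 probes with a symbol, were Hibadh (r = 0.97), Pgm1 (0.96), Cth (0.96), St6gal1 (0.96) and Creg1 (0.96). These encode enzymes of valine breakdown, glycogen metabolism, cysteine synthesis and glycan sialylation, and a lysosomal protein. They were 0.39 to 0.67 log2 units higher in the hypothyroid group, which follows from their likeness to probes picked for being higher there. Without control 616 their r lay between 0.93 and 0.96. By deviations from the group means, which leave the group difference out, the 5 most alike were Ltb4r1, Mapk15, Tro, Dedd2 and Col4a1, with r from 0.96 to 0.98, and 0 of them was also among the first 5. For Akr1c6 the most alike were Cfi, Igfbp1, Fgg, Ctsh and Fabp1, with r from 0.992 to 0.998, and from 0.87 to 0.96 without control 616. By deviations they were Cfi, Igfbp1, Fgg, Ctsh and Selenop, with r from 0.992 to 0.998. These probes share arrays and reference with the members, and the correlations are a description of 10 arrays in which control 616 carries much of the spread.

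Other enzymes of carbonyl and steroid reduction were set beside the family. Over all probes tested, 0.00936% passed at an adjusted p below 0.05 in the limma fit. In both directions together, 7.47% passed at an unadjusted p below 0.05, and the median difference was -0.01. Of the other aldo-keto reductases (13 probes of 12 genes tested), 0 passed at an adjusted p below 0.05, 2 were higher and 1 lower at an unadjusted p below 0.05, 5 differences were positive, and the median was -0.06. Akr1b7, an aldose reductase-like enzyme, had the largest difference of that list at 0.92 (SE 0.30), with 2.21 to 3.96 in the controls and 3.87 to 4.71 in the hypothyroid animals, so that the groups overlapped. Akr7a5, an aldehyde reductase, differed by 0.56 (SE 0.23), and Akr1b10 by -0.38 (SE 0.14). Akr1e1, which lies next to the family, differed by 0.19 (SE 0.17), and Akr1d1, the steroid 5beta-reductase, by -0.11 (SE 0.19). In control liver 4 of these 13 probes were above the reference and 7 below at an adjusted p below 0.05 (limma), and all 8 Akr1c probes were above. Over all probes, 36.2% were above it and 33.5% below. These genes were named after their values or positions were seen.

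The counts of the next 2 lists stand beside the same 7.47% of all probes at an unadjusted p below 0.05, both directions together. Of the hydroxysteroid dehydrogenases and steroid reductases (28 probes of 23 genes), 0 passed at an adjusted p below 0.05, and 4 were higher and 0 lower at an unadjusted p below 0.05. The 4 were Hsd11b1, which regenerates active glucocorticoid, at 0.37 (SE 0.14), Hsd17b10 at 0.35 (SE 0.13), 1 of the 3 Hsd3b2 probes at 0.38 (SE 0.14), and Hsd3b7, a bile acid synthesis enzyme, at 0.41 (SE 0.18). Their names are given because of these values. The median of the list was 0.15, with 22 of 28 positive, and 0.08 without control 616. Of the carbonyl and short-chain reductases (19 probes of 15 genes), 0 passed at an adjusted p below 0.05, 2 were higher and 2 lower at an unadjusted p below 0.05, and the median was 0.22, or 0.03 without control 616. Dhrs7b was the 1 probe of the 3 lists whose groups did not overlap: its log2 ratio was 0.42 to 0.90 in the controls and 0.22 to 0.38 in the hypothyroid animals, a difference of -0.30 (SE 0.09). Over all probes, 0.986% were lower and 1.08% higher without overlap. In control liver 23 of the 28 hydroxysteroid dehydrogenase and steroid reductase probes were above the reference and 0 below. Of the 19 carbonyl and short-chain reductase probes, 15 were above it and 4 below. A ratio above the reference was thus not particular to the Akr1c family.

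Over the processing alternatives, both Akr1c19 probes were higher in the hypothyroid group in each one. The genes were picked on this difference, so its direction is a description and not a test. With the dyes as labelled the SEs were 2.07 and 2.49, so the direction in that setting says little. A_51_P111335 ranged from 0.69 to 0.86 over the 10 fits that left out 1 array and from 0.52 to 1.095 over 14 other settings. A_51_P180213 ranged from 0.25 to 0.50 and from 0.074 to 0.61. No Akr1c probe passed at an adjusted p below 0.05 in any of the fits. At an unadjusted p below 0.05 the number of Akr1c probes that passed ranged from 0 with the dyes as labelled to 4. Over all 32056 probes the number was 106 with the dyes as labelled, 317 under median centring and 2393 in the fit described above.

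**Figure D5:**
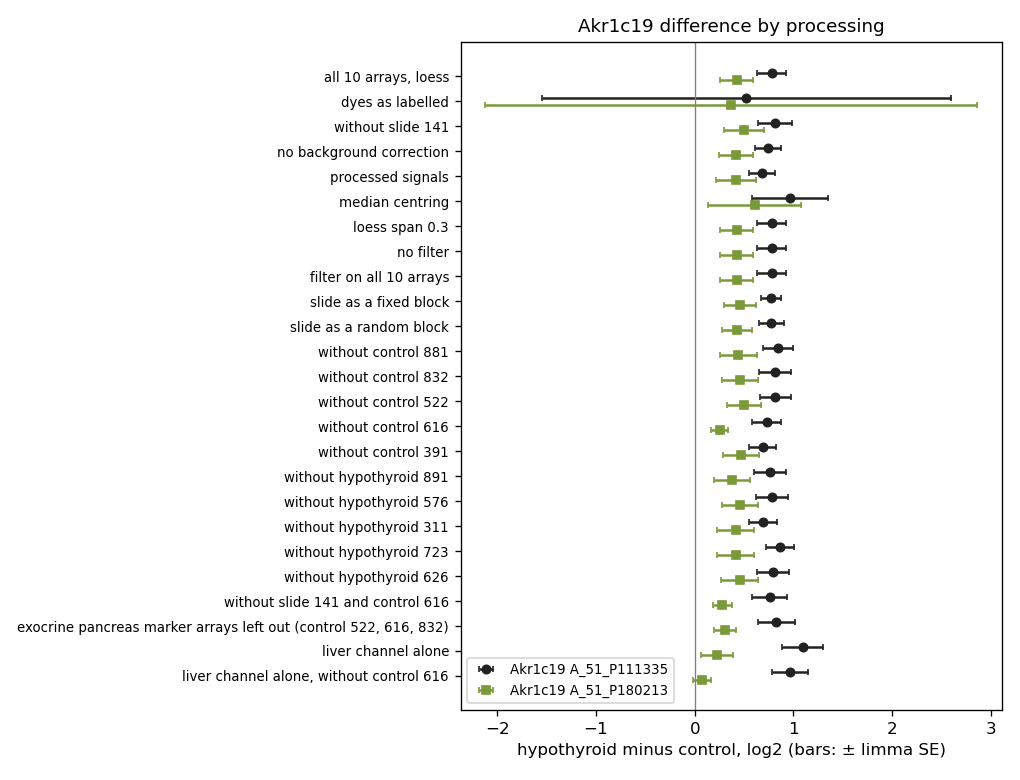
Hypothyroid minus control difference in log2 units (horizontal axis) of the 2 Akr1c19 probes under each processing setting (rows), with the limma SE as bars. Probe A_51_P111335 stays between 0.52 and 1.095, and probe A_51_P180213 falls to 0.25 without control 616 and to 0.074 with the liver channel alone without that array.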

How the data were processed

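Gene expression was measured in 10 livers on 2-colour arrays. The deposited files hold the median and background intensities of each spot, as the authors' Agilent Feature Extraction software wrote them, without normalisation between channels. The accompanying miRNA tables were not used here. Background was corrected by normexp (offset 50), log2 ratios of liver over reference were normalised within each array by loess (span 0.2), as the methods describe for the span, and spots of a probe were averaged. A probe was kept when, in either group, 4 or more of the 5 arrays had a liver signal above a background limit. This limit was the mean of the negative control spots after 5% trimming, plus 3 SDs of the same trimmed values. On slide 141 the sign was turned. Group means were compared by limma 3.58.1 in R 4.3.3 over all 32056 probes kept, with Benjamini-Hochberg adjustment over them. The Fs statistic with residual shuffling (100 shuffles) was re-coded as an alternative, since the MAANOVA library was not at hand. Signal over background and the number of arrays, not read depth, limit the precision. In simulated data, where 200 of the 32056 probes were changed, the limma comparison of hypothyroid with control recovered 44% of changes of 0.5 log2 units and 85.5% of those of 1. These shares are over the changed probes and need not hold for a given member. The pooled SD within groups ranged from 0.055 for Akr1c21 to 1.07 for Akr1c6, against a median of 0.16 over all probes. Symbols came from the RefSeq gene table by accession, for 23374 of 41174 probes.

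The members and all gene lists were chosen with earlier results of these data known. Genes named in the text were every member probe, the 5 probes most alike to Akr1c19 and to Akr1c6 over all arrays and over deviations from group means, the members of the 3 reductase lists without overlap between groups, and Alb, Apoa1 and Ttr, and others are marked where they are named. Alternatives concerned the dyes of slide 141, the background, the signal, the normalisation, the probe filter, the slide as a block, the test, averaging of probes and each array in turn. The liver channel alone, 2 joint omissions of arrays and the motif CATTAG were chosen after seeing the data. Motifs were searched on both strands of the 250 bases upstream of each start in RefSeq (GRCm38.p6), and promoter windows were aligned pairwise and globally with Biopython. Probe sequences were not used here.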

Additional observations from a re-analysis of the deposited data

Results flagged for a closer look

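In 4 of 16 groups of 5 arrays (8 probes in each condition), 1 array lay far below the nearest of the others relative to the range of the group, and in all 4 it was control 616. Its log2 liver/reference ratio was 1.35 on Akr1c12 A_51_P242859, 2.20 on Akr1c12 A_52_P346037, 3.80 on Akr1c19 A_51_P180213 and 4.75 on Akr1c6 A_51_P189082. Chance flags about 1 group in 20 by this rule, and the probes of 1 array are not independent. What sets this array apart was not tested.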

How the results depend on the processing

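Without overlap between groups, 2 Akr1c probes were higher in hypothyroid liver with all arrays, 0 with the dyes as labelled, 0 under median centring and 1 of 6 genes after averaging of probes, and 2 to 3 when 1 array was left out (3 without control 522). Over all probes the number higher without overlap moved as well, being 347 of 32056 with all arrays, 25 with the dyes as labelled, 41 under median centring, 167 of 14645 genes after averaging and 554 of 31468 without control 522. Median centring moved the median of all probes to 0.09 log2 units. The Akr1c19 probe A_51_P111335 moved from 0.78 to 0.52 with the dyes as labelled and to 1.095 with the liver channel alone, and A_51_P180213 moved from 0.42 to 0.074 with the liver channel alone without control 616. Leaving out 1 array gave 0.69 to 0.86 and 0.25 to 0.50. With the dyes as labelled, the number of Akr1c probes above the reference fell from 8 to 0 in both groups, and over all probes from 11608 in control and 12051 in hypothyroid liver to 0. The turned sign on slide 141 makes this difference by construction. The same holds for the moves, with the dyes as labelled, of the Akr1c19 differences and of the Akr1c counts without overlap. For the other moves the cause was not tested. In the remaining 160 of 168 recomputed values of the Akr1c19 differences and of the counts, the direction and size were kept within the spread between animals or within 1.5 times. This rule is wide: the fall of A_51_P180213 from 0.42 to 0.25 without control 616 is among the values kept. So are the counts of Akr1c and reductase probes at an adjusted p below 0.05, which were 0 in every setting. Over all probes, 3 passed at an adjusted p below 0.05 with all arrays, 34 without control 616, 14 with slide as a random block and 0 with slide as a fixed block. No paired analysis was possible because the replicate numbers of the control and hypothyroid animals on the arrays differ, and the miRNA assays, whose labels share numbers, were not tested. Pairing by shared slide was run, within slides and as a block.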
